A study of Mus musculus with 37 samples.

Results

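Duxf3 and AW822073 are neighbouring copies of the mouse Dux gene, and they were chosen by symbol from the 55401 genes of the deposited table of early libraries, which makes 2 members of 55401 rows. Their levels in 2-cell embryos of the knockout against the control were known when they were picked, so those differences are given below as descriptions without a p-value. RNA-seq was made from mouse oocytes and embryos with or without maternal BAP1, the deubiquitinase that removes ubiquitin from histone H2A at lysine 119. Control females were Bap1flox/flox, and knockout females were Gdf9-iCre, Bap1flox/flox, where the promoter of Gdf9, an oocyte gene, drives the recombinase in the growing oocyte. All females therefore carried floxed Bap1 alleles, and the embryos up to the 2-cell stage had a wild-type B6 father. The 26 early libraries of total RNA come from fully grown oocytes (FGO), eggs at metaphase of meiosis II (MII), and embryos at the late 1-cell (L1C), early 2-cell (E2C) and late 2-cell (L2C) stages. Each stage has 2 control libraries, with 3 at E2C, and 3 knockout libraries. A second table holds 11 poly(A) libraries of epiblast, visceral endoderm and extraembryonic ectoderm at embryonic day 6.5, from the same maternal genotypes with a PWK father. The labels do not say whether replicates came from separate females or cultures, so p-values measure the spread between libraries.

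DUX is a transcription factor with a pair of homeodomains, encoded by a tandem repeat array that lies between single-copy genes. It is normally transcribed for a short window around zygotic genome activation and is then shut off, and in cell culture it switches on genes of the 2-cell embryo such as the Zscan4 cluster, Zfp352 and the Tdpoz and Usp17l families. Activators of Dux described in embryonic stem cells or embryos include DPPA2, DPPA4, NELFA and OBOX proteins, and its described repressors include TRIM28, CAF-1, SMCHD1, SETDB1, the SUMO pathway and a variant Polycomb complex that places ubiquitin on H2A.

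Both genes lie on the minus strand of chromosome 10 (GRCm38, GENCODE M21) as single-exon protein-coding models. Duxf3 (ENSMUSG00000075046.7) spans positions 58229979 to 58232675, 2697 exonic bases, and AW822073 (ENSMUSG00000058537.4) spans 58222972 to 58224930, 1959 exonic bases, all of it coding. The start of AW822073 lies 7745 bases downstream of the Duxf3 start. Aligned over 1959 bases, their longest transcripts differed at 37 positions and were 98.1% identical. The stretch where the AW822073 model begins is shown because it encodes part of the DNA-binding region and differs at 1 base, in capitals, between chr10:58224691-58224930 and chr10:58232370-58232609 (GRCm38, minus strand, 240 bases each).

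AW822073: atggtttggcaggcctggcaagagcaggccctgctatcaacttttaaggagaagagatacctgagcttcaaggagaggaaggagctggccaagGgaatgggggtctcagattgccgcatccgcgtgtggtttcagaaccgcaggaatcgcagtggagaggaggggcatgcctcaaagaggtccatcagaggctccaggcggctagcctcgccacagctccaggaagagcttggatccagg

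Duxf3: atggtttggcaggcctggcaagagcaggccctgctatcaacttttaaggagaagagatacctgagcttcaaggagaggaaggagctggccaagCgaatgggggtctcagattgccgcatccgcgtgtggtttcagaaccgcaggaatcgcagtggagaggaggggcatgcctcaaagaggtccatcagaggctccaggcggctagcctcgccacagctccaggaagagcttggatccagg

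The last 120 coding bases, shown next because they are shared by 3 models of the array, are at chr10:58230651-58230770 in Duxf3, chr10:58222972-58223091 in AW822073 and chr10:58227857-58227976 in the pseudogene Gm10807, which lies between them. The capital marks the base at which AW822073 and Gm10807 differ from Duxf3.

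Duxf3: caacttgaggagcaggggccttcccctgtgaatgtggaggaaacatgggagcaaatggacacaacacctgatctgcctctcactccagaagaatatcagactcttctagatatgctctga

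AW822073: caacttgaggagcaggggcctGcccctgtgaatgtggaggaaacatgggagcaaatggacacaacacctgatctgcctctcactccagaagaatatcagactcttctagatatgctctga

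Gm10807: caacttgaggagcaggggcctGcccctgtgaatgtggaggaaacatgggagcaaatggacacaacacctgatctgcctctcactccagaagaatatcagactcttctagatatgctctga

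Of all 50-base words in the exons, 47.0% of those of Duxf3 and 52.1% of those of AW822073 were found in other genes. AW822073 words were found in Duxf3 at 47.4%, and Duxf3 words in AW822073 at 32.5%. How reads that fit more than 1 place were counted, and whether counting used strand, is not given in the sources used here. The split between the copies is therefore uncertain, and their sum is given beside each. Across the 26 early libraries the copies' log2 levels had a Pearson r of 0.99, a description over libraries that share stages and, in part, reads.

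Levels are FPKM, fragments scaled by gene length and library size as the authors computed them, and differences are knockout minus control in mean log2(FPKM + 1), a scale that understates changes of low values. A gene is called higher or lower where limma gave a Benjamini-Hochberg adjusted p under 0.05 over all genes tested at its stage. In these bulk libraries, fewer cells with a transcript and less of it per cell cannot be told apart. The sum of all FPKM values ran from 300668 to 430784 per library, and read depth is not known from the FPKM. Bap1 was lower in knockout libraries at each of the 5 stages, for example 23.5, 29.2 and 24.8 FPKM in control against 7.05, 6.67 and 6.77 FPKM in knockout E2C libraries. The gap was narrower at L2C, with 24.4 and 20.9 FPKM in control and 9.69, 11.7 and 10.0 FPKM in knockout libraries. Of the 5 cumulus and granulosa cell markers, the summed level at E2C was 3.72 to 5.61 FPKM in control and 1.14 to 1.87 FPKM in knockout libraries, with 1 marker at 0 in each group. The same sum at L1C was 4.81 to 6.50 FPKM in control and 1.62 to 2.19 FPKM in knockout libraries. In FGO it was 5.81 to 7.13 FPKM in control and 1.66 to 1.96 FPKM in knockout. In MII it was 4.76 to 5.96 FPKM in control and 1.38 to 1.76 FPKM in knockout. At L2C the groups overlapped, at 0.929 to 1.17 FPKM in control and 0.550 to 1.11 FPKM in knockout. The part of this sum in the L1C and E2C results was not tested. The summed level of 6 oocyte markers at L2C was 234 to 240 FPKM in control and 402 to 482 FPKM in knockout libraries, with none at 0. At L1C the oocyte marker sum was 747 to 751 FPKM in control and 818 to 1266 FPKM in knockout libraries. The part of this sum in the L1C and L2C results was not tested.

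Transcripts of both copies were close to 0 in oocytes and eggs of either genotype. In FGO, Duxf3 measured 0.0293 and 0.0238 FPKM in control and 0.0408, 0.0276 and 0.0407 FPKM in knockout libraries. AW822073 measured 0.125 and 0.0349 FPKM in control and 0.204, 0.0486 and 0.0593 FPKM in knockout oocytes. These values put neither copy near the 1 FPKM that a gene needed in at least 2 libraries to be tested. In MII eggs, Duxf3 read 0.0436 and 0 FPKM in control and 0.0528, 0.00692 and 0 FPKM in knockout libraries. AW822073 read 0.0572 and 0.0352 FPKM in control and 0.0332, 0.0457 and 0.0106 FPKM in knockout eggs. The groups overlapped for the sum at both stages, with means of 0.107 against 0.140 FPKM in FGO and 0.0680 against 0.0497 FPKM in MII, and a stored maternal Dux transcript was not detectable above these levels.

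Both copies appeared at the late 1-cell stage, and every knockout library then lay below both controls. Duxf3 measured 2.78 and 4.27 FPKM in control and 1.39, 2.52 and 2.33 FPKM in knockout L1C embryos. AW822073 measured 3.40 and 3.76 FPKM in control and 1.71, 1.83 and 2.99 FPKM in knockout L1C embryos. Control embryos had a sum of 7.10 ± 1.32 FPKM (SD, n = 2), and knockout embryos one of 4.26 ± 1.11 FPKM (SD, n = 3), a ratio of 0.599 and a log2 difference of -0.64 ± 0.25 (SE). The difference did not pass the test for either copy. Of 7 other settings, 6 left Duxf3 and 5 left AW822073 without a call. The difference was -0.55 ± 0.23 (SE) for Duxf3, and limma over 11096 genes gave a Benjamini-Hochberg adjusted p of 0.144. With each library left out, the Duxf3 difference ran from -0.79 to -0.31. Under the other settings its limma adjusted p ran from 0.0357 to 0.353. The 0.0357 came from a fit with replicate number as a block, which uses only replicates 1 and 2 for the difference. Same-numbered libraries share only a number. For AW822073 the difference was -0.55 ± 0.20 (SE) with a limma adjusted p of 0.106, against 14.9% of all genes called at this stage. The AW822073 result depended on single libraries: without knockout replicate 3 the limma adjusted p was 0.0309, and leaving out each library in turn gave 0.0309 to 0.376. With all 26 early libraries in 1 fit it was 0.0464, and the other settings gave 0.0165 to 0.268.

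Between the late 1-cell and early 2-cell stages the knockout embryos gained far more Dux transcript than the controls. Duxf3 at E2C measured 5.52, 3.31 and 5.75 FPKM in control and 19.2, 22.2 and 27.5 FPKM in knockout libraries. AW822073 measured 4.94, 5.95 and 5.88 FPKM in control and 25.8, 29.0 and 30.1 FPKM in knockout libraries. Both copies lay above every control in all 3 knockout libraries, with log2 differences of 2.05 ± 0.22 (SE) for Duxf3 and 2.15 ± 0.15 (SE) for AW822073. Their sum in control embryos was 10.4 ± 1.19 FPKM (SD, n = 3), and knockout embryos reached 51.2 ± 6.25 FPKM (SD, n = 3), 4.91-fold higher. From L1C to E2C the mean sum rose 1.47-fold in control and 12.0-fold in knockout embryos. This E2C difference is one of the values that chose the pair of genes, among 10.1% of all genes called at E2C, and nothing is read from it here.

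At the late 2-cell stage the transcripts had dropped in both genotypes, and knockout embryos remained above the controls. Duxf3 measured 0.452 and 0.463 FPKM in control and 1.83, 2.45 and 1.20 FPKM in knockout L2C libraries. AW822073 measured 0.435 and 0.430 FPKM in control and 2.19, 2.25 and 1.35 FPKM in knockout L2C libraries. The lowest knockout library, replicate 3 for both copies, was still above both controls. The sum of control embryos was 0.890 ± 0.00452 FPKM (SD, n = 2), and that of knockout embryos was 3.75 ± 1.10 FPKM (SD, n = 3), 4.22-fold higher. The log2 differences were 0.93 ± 0.26 (SE) for Duxf3 and 1.02 ± 0.25 (SE) for AW822073. From E2C to L2C the mean sum dropped 11.7-fold in control and 13.7-fold in knockout embryos. Like the E2C value, the L2C difference was known when the genes were chosen, among 38.5% of all genes called at L2C.

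**Figure D1:**
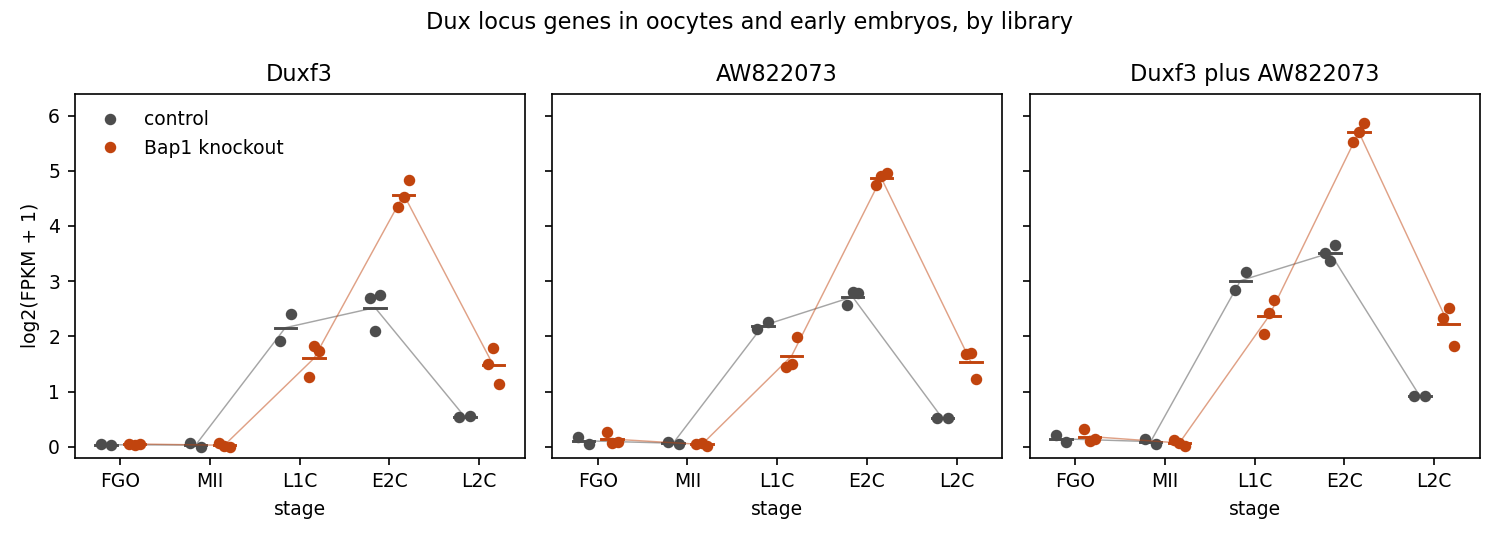
Level of Duxf3, AW822073 and their sum as log2(FPKM + 1) by stage; each point is 1 library, horizontal bars are group means of the log2 values, and thin lines join the means of a genotype. Knockout points lie below the controls at L1C and above them at E2C and L2C, and all points of FGO and MII lie close to 0.

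The groups fell into an order by the mean sum that set E2C knockout highest at 51.2 FPKM, followed by E2C control at 10.4, L1C control at 7.10, L1C knockout at 4.26, L2C knockout at 3.75 and L2C control at 0.890 FPKM. L1C knockout, at 3.10 to 5.32 FPKM, and L2C knockout, at 2.55 to 4.69 FPKM, overlapped, while each of the other neighbours named so far was separate in every library. The 4 oocyte and egg groups came last, with means of 0.0497 to 0.140 FPKM, and overlapped with each other. At embryonic day 6.5 both copies were at or near 0. Duxf3 was listed at 0 in 6 of 11 libraries with a highest value of 0.196 FPKM, and AW822073 was listed at 0 in 8 of 11 with a highest value of 0.255 FPKM, both highest values in knockout epiblast replicate 1. No test was made there, since neither copy reached 1 FPKM and extraembryonic ectoderm has 1 control library; the markers of each lineage were highest in its own libraries.

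The rest of the array moved with the members in part. Gm10807 (ENSMUSG00000057216.6, chr10:58227857-58228651), the truncated copy between them, shares 86.4% of its 50-base words with other genes, and 73.1% of all its words with Duxf3. It measured 2.16, 2.72 and 2.77 FPKM in control and 9.58, 10.99 and 13.4 FPKM in knockout E2C libraries, so its groups were as separate as those of the members. Because of the shared sequence this is no independent measurement. Gm4981 (ENSMUSG00000075045.4, chr10:58234848-58236701), a protein-coding copy that starts 4026 bases upstream of the Duxf3 start, shares only 9.36% of its words. Unlike Duxf3 and AW822073, it was present in oocytes, at 6.66 to 7.52 FPKM in control and 4.34 to 5.75 FPKM in knockout FGO libraries. At E2C it measured 6.77, 3.92 and 4.22 FPKM in control and 6.60, 8.73 and 7.13 FPKM in knockout libraries, and the groups overlapped. Its E2C difference was 0.53 ± 0.22 (SE) with a limma adjusted p of 0.159. The pseudogene Gm19459 stayed at or below 0.948 FPKM in every early library.

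**Figure D2:**
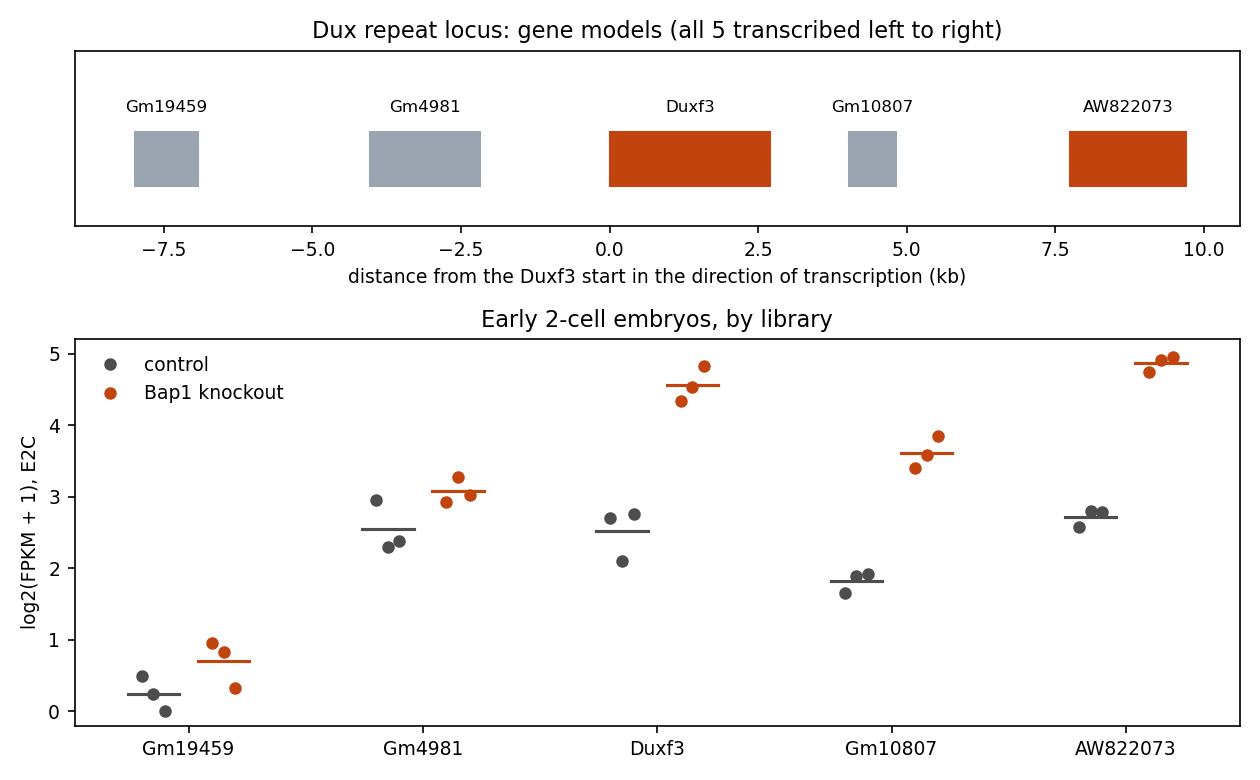
Upper panel, gene models of the array by distance in kb from the Duxf3 start in the direction of transcription, with the members in orange; lower panel, log2(FPKM + 1) of each gene in the E2C libraries, with points for libraries and bars for group means. The groups are apart for Duxf3, Gm10807 and AW822073 and overlap for Gm4981.

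The single-copy genes next to the array had nearly equal group means at E2C. Gcc2, a Golgi coiled-coil protein gene whose start is 22822 bases from that of Duxf3 on the other strand, measured 23.6 FPKM in both groups at E2C, with a limma adjusted p of 0.991. At L2C Gcc2 measured 8.43 and 7.62 FPKM in control and 29.7, 22.7 and 23.6 FPKM in knockout libraries. The difference was 1.54 ± 0.15 (SE) with a limma adjusted p of 0.000334. From E2C to L2C the Gcc2 mean went from 23.6 to 8.03 FPKM in control and from 23.6 to 25.3 FPKM in knockout. Lims1, an adaptor at focal adhesions, measured 4.73 FPKM in control and 4.68 FPKM in knockout at E2C and differed at L2C by -0.24 ± 0.18 (SE), with a limma adjusted p of 0.313. Of the other Dux-related genes of the mouse, Duxbl1 stayed at or below 1.56 FPKM and Duxbl2 and Duxbl3 were listed at 0 in every early library.

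None of the listed and tested DUX-induced genes was called higher at E2C, the stage at which the summed Dux level peaked. The list holds part of the genes that DUX is known to induce and was chosen with earlier results of these data known. Of 42 such genes listed, 36 passed the filter at E2C. Limma called 0 of them higher and 8 lower, and left 28 without a call, against 4.25% of all genes called higher and 5.87% called lower. At an unadjusted p under 0.05 the counts were 0 higher and 19 lower. The median difference of the list was -0.85 against 0.03 over all genes tested, and 32 of the 36 were below zero. The number higher was 0 under each alternative and with each library left out. The number lower was unstable: it was 1 without control replicate 1, 3 without control replicate 2, 2 without control replicate 3 and 4 without knockout replicate 2, and 23 with all 26 early libraries in 1 fit.

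The 3 largest differences below zero at E2C were in Pramel7, Gm4850 and Gm2016. Pramel7, a gene better known from the inner cell mass and naive pluripotent cells, measured 5.41, 6.06 and 6.37 FPKM in control and 0.389, 0.108 and 0.178 FPKM in knockout E2C libraries. Its difference was -2.51 ± 0.22 (SE) with a limma adjusted p of 0.000549. Gm4850 measured 11.5, 7.27 and 9.86 FPKM in control against 3.73, 0.188 and 3.25 FPKM in knockout, a difference of -1.85 ± 0.48 (SE) with a limma adjusted p of 0.0433. Knockout replicate 2 was the lowest library for Gm4850, as it was for Gm2016, whose knockout values were 9.94, 2.90 and 15.8 FPKM against 29.8, 28.4 and 23.9 FPKM in control. Gm2016, one of a family of copies related to translation initiation factor 1A, differed by -1.66 ± 0.44 (SE) with a limma adjusted p of 0.0478. The calls of Gm4850 and Gm2016 were lost without any 1 of the 3 control libraries, and that of Gm2016 also without knockout replicate 1, with limma adjusted p up to 0.138 and 0.140. Under the other alternatives, the limma adjusted p of Gm4850 ran from 0.000277 to 0.192 and that of Gm2016 from 0.000338 to 0.215. Pramel7 passed in all of its alternatives, with 0.0118 as the highest.

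Zscan4c and Zfp352 are described as the best-known DUX-induced genes and were chosen after their values were seen. Zscan4c, of the telomere-associated Zscan4 cluster, measured 60.7, 43.1 and 46.4 FPKM in control and 39.2, 13.6 and 31.9 FPKM in knockout E2C libraries. No knockout library reached a control, and the difference of -0.91 ± 0.33 (SE) had a limma adjusted p of 0.114. Zfp352, a zinc finger gene derived from a retrotransposed copy, measured 64.0, 54.9 and 56.4 FPKM in control E2C libraries. The knockout E2C libraries had 28.0, 11.2 and 25.0 FPKM of Zfp352, a difference of -1.50 ± 0.29 (SE) with a limma adjusted p of 0.0177. The Zfp352 call was lost without control replicate 1, at a limma adjusted p of 0.0704, and without a filter on low values, at 0.110, and leaving out each library gave 0.00596 to 0.0704. With all early libraries in 1 fit the Zscan4c difference was called, at a limma adjusted p of 0.0321, and the other settings gave up to 0.363. Knockout replicate 2 was the lowest for both genes. Its summed Dux level of 51.2 FPKM lay between those of the other knockout libraries, 45.0 and 57.5 FPKM. A link between these levels was not tested.

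One stage later most of the listed DUX-induced genes were higher in knockout embryos. At L2C, 37 of the list passed the filter, of which 26 were higher, 5 were lower and 6 were not called, with limma and Benjamini-Hochberg adjustment, against 19.0% of all genes called higher and 19.5% called lower. The median difference was 1.57 against 0.03 over all genes. Of the 26 that were higher at L2C, 3 had been lower and 23 not called at E2C, and 3 genes were lower at both stages. The number higher was 24 to 26 under every alternative. Many of these genes belong to families of near-identical copies: 31 of the 40 with a transcript in the annotation shared over 20% of their 50-base words with other genes, so values of single copies are uncertain.

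The largest differences above zero at L2C were in Eif4a3l1, Gm2022 and BB287469. Eif4a3l1, a copy of the gene for an RNA helicase of the exon junction complex, measured 1.99 and 1.83 FPKM in control and 38.1, 27.4 and 25.9 FPKM in knockout L2C libraries, a difference of 3.41 ± 0.19 (SE) with a limma adjusted p of 5.21e-05. Gm2022, of the translation initiation factor 1A family, measured 3.38 and 4.15 FPKM in control and 39.6, 39.1 and 39.2 FPKM in knockout. Its knockout libraries were nearly equal, and it differed by 3.08 ± 0.13 (SE) with a limma adjusted p of 2.37e-05. BB287469, of the same family, had a mean of 1.43 FPKM in control and 17.6 FPKM in knockout. It differed by 2.94 ± 0.20 (SE), with a limma adjusted p of 0.00013. Zscan4c measured 4.49 and 4.45 FPKM in control and 33.5, 19.98 and 27.9 FPKM in knockout. Its difference was 2.33 ± 0.21 (SE), with a limma adjusted p of 0.000242. Zfp352 measured 31.2 and 34.1 FPKM in control and 119, 99.2 and 96.5 FPKM in knockout.

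The 5 genes that were lower at L2C were Pramel7, Pramel6, Tdpoz4, Tdpoz2 and Ubtfl1, the last 2 named after their values were seen. Pramel7 measured 92.1 and 70.4 FPKM in control and 19.2, 7.78 and 9.13 FPKM in knockout, a difference of -2.75 ± 0.32 (SE) with a limma adjusted p of 0.000627. Pramel6 went from a mean of 23.4 to 5.47 FPKM and Tdpoz4 from 25.0 to 7.33 FPKM, and the Tdpoz4 call was lost without control replicate 2, at a limma adjusted p of 0.0617. Pramel6, Pramel7 and Tdpoz4 all had higher control means at L2C than at E2C, whereas Zscan4c in control embryos dropped 11.2-fold between these stages. The control mean of Gm4850 also rose, from 9.56 to 57.0 FPKM. Gm4850 was still not called at L2C, with a knockout mean of 59.1 FPKM and a limma adjusted p of 0.947. A link between the control change and the knockout difference was not tested. The number lower at L2C was 3 without control replicate 1, 2 without control replicate 2 and 3 without knockout replicate 3.

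**Figure D3:**
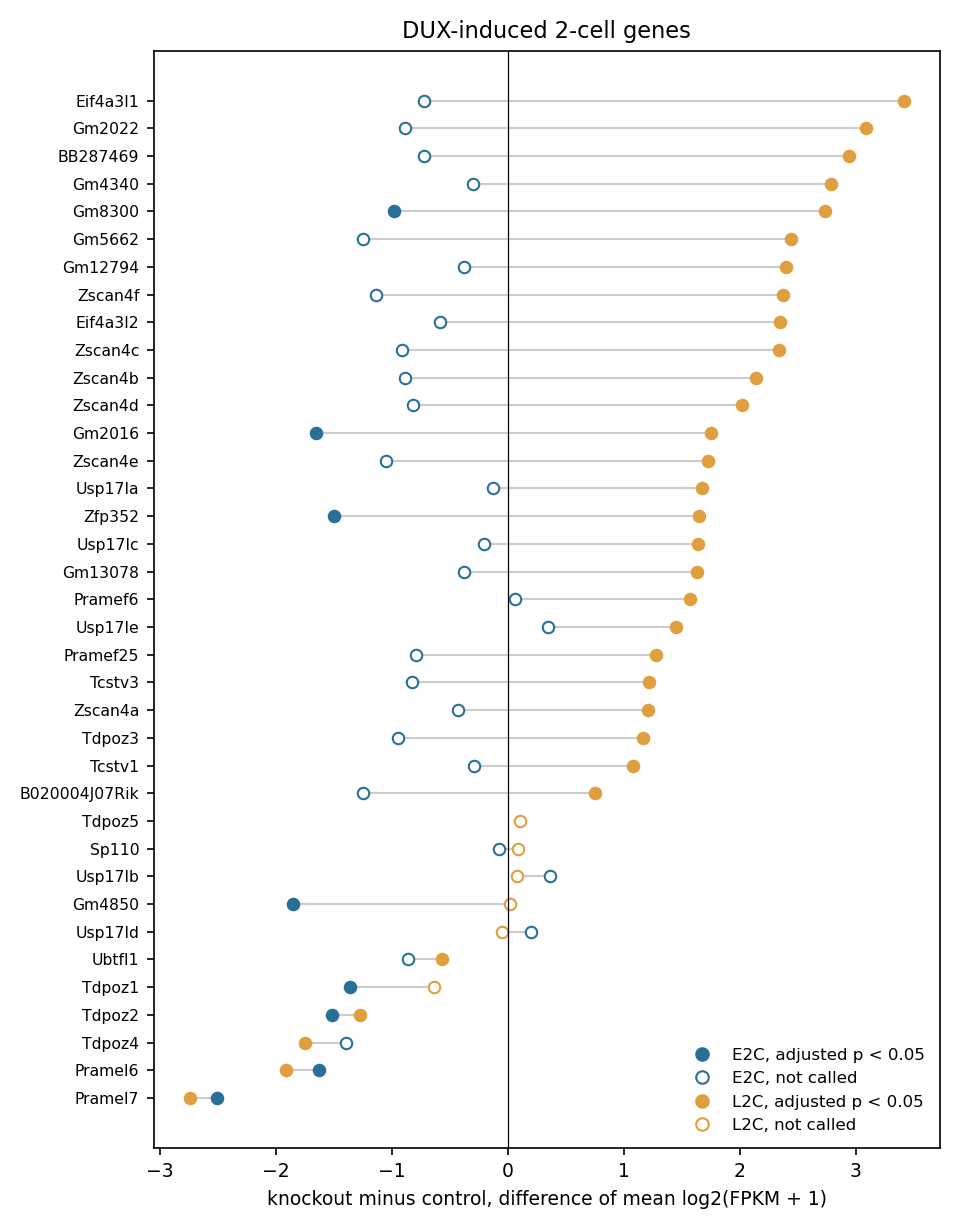
Difference between knockout and control in mean log2(FPKM + 1) for the DUX-induced genes that passed the filter, sorted by the L2C value; blue points are E2C and orange points are L2C, filled where the limma adjusted p was under 0.05, and a grey line joins the stages of a gene. Most blue points lie left of zero and 26 filled orange points lie right of it.

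The change between the stages was tested in 1 limma fit over the 11 E2C and L2C libraries, added after the counts at each stage were seen. The knockout effect was higher at L2C than at E2C in 22 of 37 DUX-induced genes and lower in 0, also at an unadjusted p under 0.05, against 8.81% of all genes higher and 7.89% lower. The median difference of effects was 2.01 in the list and 0.04 over all genes. For Zscan4c it was 3.25 ± 0.47 (SE) with a limma adjusted p of 0.00125. In control embryos Zscan4c fell from a mean of 50.1 FPKM at E2C to 4.47 FPKM at L2C, and in knockout embryos it read 28.2 and then 27.1 FPKM. Zfp352 in knockout embryos went from 21.4 to 104.9 FPKM, and its control mean from 58.4 to 32.7 FPKM. The knockout embryos held their highest summed Dux level at E2C, when their Zfp352 and Eif4a3l1 levels were below those reached at L2C.

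**Figure D4:**
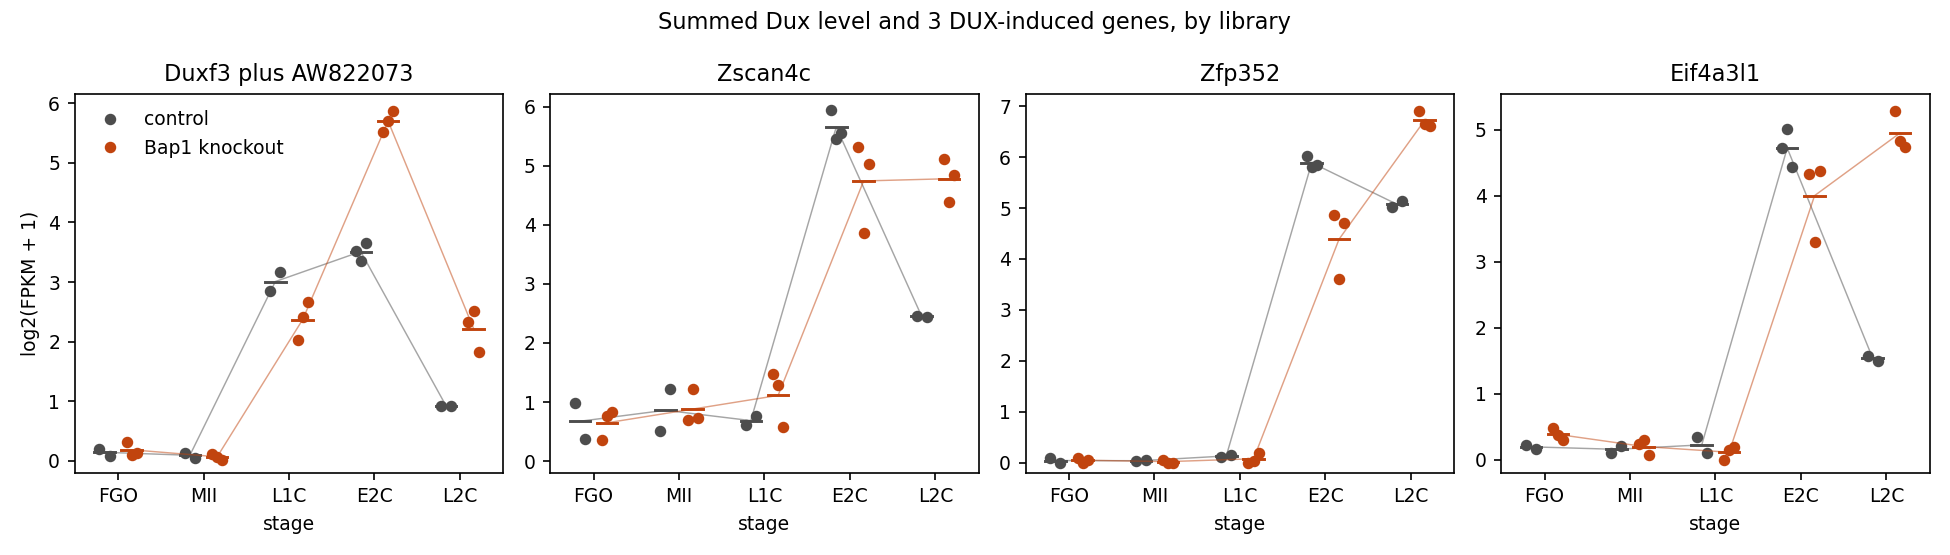
Summed Dux level, Zscan4c, Zfp352 and Eif4a3l1 as log2(FPKM + 1) by stage; each point is 1 library, bars are group means of the log2 values and lines join the means of a genotype. The summed Dux level of knockout embryos peaks at E2C, and in Zscan4c, Zfp352 and Eif4a3l1 the knockout points lie below the controls at E2C and above them at L2C.

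No listed activator of Dux was called higher at L1C or E2C. Of 9 activators, all tested at E2C, limma called 0 higher and 3 lower, against 4.25% of all genes called higher and 5.87% called lower. Of 8 tested at L1C it called 0 higher and 4 lower, against 6.22% of all genes called higher and 8.71% called lower at L1C. At an unadjusted p under 0.05, 1 was higher at E2C and 0 at L1C, and 1 was called higher at E2C without knockout replicate 1. Obox7, an oocyte and zygote homeobox gene, measured 70.6, 69.5 and 72.1 FPKM in control and 19.7, 13.6 and 18.2 FPKM in knockout E2C libraries, a difference of -2.0 ± 0.15 (SE) with a limma adjusted p of 0.000265. It was already lower in FGO, with means of 45.4 FPKM in control and 13.4 FPKM in knockout, at a limma adjusted p of 0.00785. The same held in MII, at a limma adjusted p of 0.00307. At L1C the Obox7 difference was -2.25 ± 0.12 (SE), at a limma adjusted p of 0.000413. Dppa4, which with DPPA2 binds the Dux promoter in stem cells, was also lower from FGO on. Its FGO means were 5.04 FPKM in control and 0.979 FPKM in knockout, at a limma adjusted p of 0.00277. In MII it was lower at a limma adjusted p of 0.0122. At L1C Dppa4 measured 4.29 and 3.53 FPKM in control and 0.705, 1.03 and 0.972 FPKM in knockout. It remained low in knockout at E2C, with 6.29, 9.25 and 10.4 FPKM in control and 2.08, 1.73 and 0.846 FPKM in knockout. The Dppa4 difference there was -1.93 ± 0.27 (SE) with a limma adjusted p of 0.00533. This call held in 7 of 8 other settings, with a limma adjusted p of up to 0.0537. Obox3 measured 17.4, 12.9 and 15.1 FPKM in control and 3.82, 0.0564 and 5.30 FPKM in knockout E2C libraries, with a limma adjusted p of 0.036 that ran from 0.000117 to 0.178 under the alternatives and missed the threshold without any 1 of the 3 control libraries, reaching 0.117. The other genes lower at L1C were Dppa2, with a difference of -0.39 ± 0.08 (SE), and Obox1, with -0.26 ± 0.06 (SE).

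At L2C 4 of 9 activators were higher and 2 lower, against 19.0% of all genes called higher and 19.5% called lower. Obox5 measured 103 and 93.8 FPKM in control and 301, 327 and 308 FPKM in knockout L2C libraries. Its difference was 1.65 ± 0.09 (SE) with a limma adjusted p of 4.83e-05. From E2C to L2C the Obox5 mean fell in both genotypes, from 639 to 98.5 FPKM in control and from 633 to 312 FPKM in knockout. Obox1 was higher by 1.41 ± 0.09 (SE) and Obox2 by 1.02 ± 0.15 (SE) at L2C. Their means also fell from E2C to L2C in both genotypes. Nelfa, named after its values were seen, was higher by 0.81 ± 0.10 (SE) at L2C. Dppa4 was lower by 1.76 on the log2 scale and Dppa2 by 1.05. The Dppa2 difference depended on single libraries: leaving out each in turn gave -1.35 to -0.75. Its call was kept in only 7 of 8 other settings, where the limma adjusted p reached 0.0910. Obox1 and Obox2 shared 57.4% and 65.1% of their 50-base words with other genes, so their single values are uncertain.

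None of the listed repressors of Dux was called at E2C. Of the 19 repressors reported here 17 were tested, and limma called 0 higher and 0 lower, against 4.25% and 5.87% of all genes. At an unadjusted p under 0.05, 2 were higher and 0 lower, and 1 was called higher without knockout replicate 1. CAF-1 subunit gene Chaf1a had the largest difference, 0.71 ± 0.20 (SE) with a limma adjusted p of 0.0534, from 24.7 to 40.8 FPKM in the mean. Trim28, a corepressor recruited by zinc finger proteins, measured 11.2 FPKM in both groups. At L1C Sumo2 was higher, by 0.42 ± 0.08 (SE), and Rnf2, a ubiquitin ligase for H2A that was named after its values were seen, was lower, with a difference of -0.28 ± 0.07 (SE). At L2C 5 of 18 were lower and 0 higher by limma, and at an unadjusted p under 0.05 7 were lower and 1 higher. Of all genes 19.5% were called lower and 19.0% higher, so a few lower calls in a list of this length are near the background. Control and knockout means at L2C were 39.2 and 18.8 FPKM for Sumo2, 43.9 and 24.9 FPKM for Mga and 21.6 and 12.2 FPKM for L3mbtl2. MGA and L3MBTL2 are subunits of the variant Polycomb complex. The L3mbtl2 call was lost without either control replicate, and 3 repressors were called lower without control replicate 1. Trim28 and Rif1, named after their values were seen, were lower, with differences of -0.64 ± 0.11 (SE) and -0.35 ± 0.11 (SE).

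**Figure D5:**
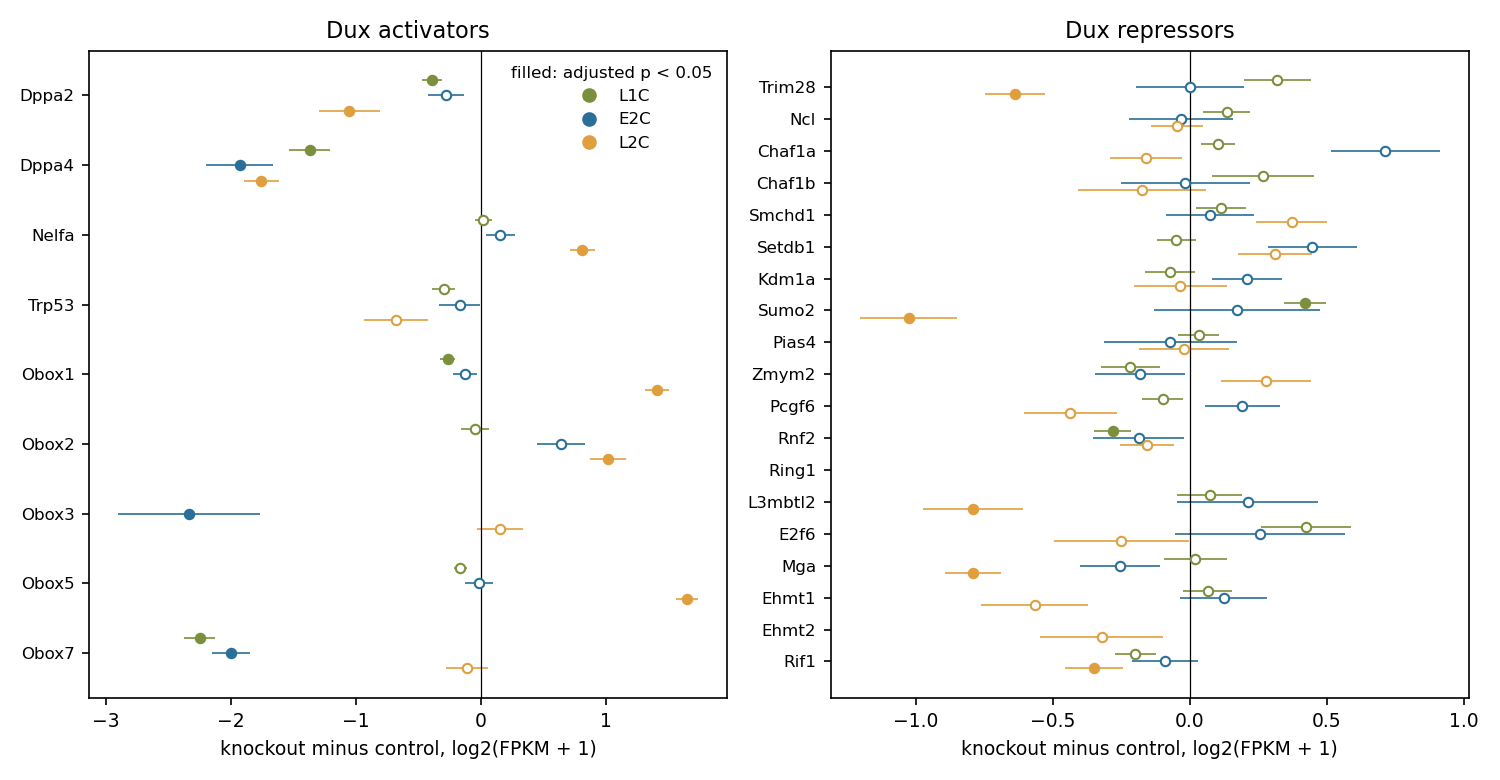
Difference between knockout and control in mean log2(FPKM + 1), with its SE as a bar, for each listed activator (left) and repressor (right) of Dux at L1C, E2C and L2C; filled points have a limma adjusted p under 0.05. At E2C the filled points are Dppa4, Obox3 and Obox7, all left of zero, and no repressor is filled.

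The promoter windows of RefSeq (GRCm38.p6, 250 bases before to 50 after each start) were searched on both strands for TGATTNAAT, the core of the DUX motif, and for an 11-base form of the motif that extends this core. Duxf3 and Gm4981 have a window there. The Duxf3 window, chr10:58233040-58233339 on the minus strand, begins upstream of the GENCODE start and held 1 core match, in capitals. It is shown with that of Zscan4c, chr7:11005495-11005794 on the plus strand, which also held 1.

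Duxf3: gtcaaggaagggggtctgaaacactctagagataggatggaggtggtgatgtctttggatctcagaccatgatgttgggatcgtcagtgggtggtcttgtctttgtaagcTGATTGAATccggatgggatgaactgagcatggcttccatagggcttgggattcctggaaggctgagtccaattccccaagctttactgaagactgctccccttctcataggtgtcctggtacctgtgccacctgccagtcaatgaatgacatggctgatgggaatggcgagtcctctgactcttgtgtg

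Zscan4c: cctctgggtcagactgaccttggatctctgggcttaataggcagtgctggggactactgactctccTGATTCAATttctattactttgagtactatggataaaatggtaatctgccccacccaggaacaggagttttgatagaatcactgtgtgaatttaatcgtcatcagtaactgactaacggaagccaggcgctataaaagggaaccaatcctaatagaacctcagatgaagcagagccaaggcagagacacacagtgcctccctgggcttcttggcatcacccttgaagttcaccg

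The 11-base form was in 11 of 32851 windows of all genes (0.0335%) and in none of the 22 DUX-induced genes with a window. The core was in 236 of 32851 windows (0.718%) and in 5 of the 23 windows of the DUX-induced genes (21.7%). Counted by gene, 5 of the 22 had a match (22.7%), which were Pramel6, Zscan4b, Zscan4c, Zscan4f and BB287469. Of these, Pramel6 was lower and the other 4 were higher in knockout L2C embryos. The Zscan4 and BB287469 windows belong to families of near-identical copies, so these matches are not separate observations. A match describes letters only, and the Gm4981 and Zscan4d windows held none.

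Among 9342 genes with a highest group mean of at least 5 FPKM, Gm10807 had the log2 profile most like the summed Dux level over the 26 libraries, with a Pearson r of 0.97. It was followed by Spin1 (0.95), Lsm14a (0.93), Foxj3 (0.93), Tcea1 (0.91), Rictor (0.90), Psme3 (0.90) and Kpna3 (0.90). Spin1, a reader of histone methylation abundant in oocytes, had group means from 614 FPKM in knockout FGO to 1183 FPKM in knockout E2C. Since the genes were chosen for this likeness, their E2C levels are given without a test. The ratio of knockout to control means was 4.45 for Gm10807, against 4.91 for the summed Dux level, and it lay between 0.965 for Psme3 and 1.27 for Foxj3 in the other 7. The correlations are over libraries of 5 stages that share their stage, and 6 of the 8 genes were also among the 8 most alike by the 10 group means.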

How the data were processed

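RNA-seq of 37 mouse libraries was used as the authors deposited it, as FPKM per gene in 1 table of 26 total-RNA libraries (SMART-Seq Stranded kit) and 1 of 11 poly(A) libraries. Per the submitters' processing notes, Trim Galore 0.6.6, STAR 2.7.9 and StringTie 2.1.7 were used with the mm10 genome; settings, treatment of multi-placed reads and the use of strand are not given in the sources used here. In the deposited poly(A) table, 1 value just under 0, in a control epiblast library, was set to 0. Tables were not combined.

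Groups came from the sample labels. Each early stage was fitted alone with limma 3.58.1 (R 4.3.3) on log2(FPKM + 1), for genes with at least 1 FPKM in 2 or more libraries, with a mean-variance trend and Benjamini-Hochberg adjustment over all genes. On simulated data with normal noise and 200 genes changed by 2 on the log2 scale, the fit recovered 93.5% at L1C, 91% at E2C and 79% at L2C. It made 7, 11 and 3 false calls at these stages. Smaller changes, such as those of the members at L1C, were not simulated. The sum was described without a test. Sequences came from GENCODE M21 transcripts and RefSeq promoter windows, searched with Python 3.11.15 and aligned with Biopython 1.88. The members and gene lists (DUX-induced genes, activators, repressors, the Dux family, markers) were chosen with earlier results of these data known. From the repressor list 1 gene is not reported here and is left out of its counts. Named were both members, their neighbours within 100 kb, the Dux family, Bap1, the 3 largest called rises and falls of each list at E2C and L2C, and the 8 genes most like the sum; exceptions are marked. Alternatives were a pseudocount of 0.1, other scalings and filters, 1 fit of all early libraries, no trend, a replicate block and each library left out.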

Additional observations from a re-analysis of the deposited data

Results flagged for a closer look

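The knockout difference of the summed level of Duxf3 and AW822073 had opposite signs at neighbouring stages, -0.64 at L1C and 2.19 at E2C on the log2 scale, and no knockout library overlapped a control at either stage. The change of sign between the stages was not tested, and the E2C value is one that chose the genes.

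The knockout effect was higher at L2C than at E2C in 22 DUX-induced genes by the test of the difference itself. Among the genes named, the difference of effects was 4.14 for Eif4a3l1, 3.97 for Gm2022, 3.66 for BB287469 and 3.40 for Gm2016, with limma adjusted p-values of 0.000196, 0.000476, 0.000346 and 0.00295. With each library left out in turn, 19 to 24 genes had a higher effect at L2C and 0 a lower one.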

How the results depend on the processing

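Of 271 planned and added recalculations of the counts and member values, 234 stayed on their side of the threshold, within 1.5 times the count or, for the untested sum, within 1 SD between replicates. No tested difference changed sign. The sum did so in FGO and MII, where it was near 0: in MII it was -0.02 as reported and 0.03 with median centring. TPM scaling raised the median difference of all genes by 0.10 at E2C and 0.13 at L2C, and it gave the summed Dux level 2.36 at E2C and 1.77 at L2C. A pseudocount of 0.1 gave 0.19 in FGO, -0.17 in MII and 1.92 at L2C. Leaving out each library in turn gave the sum -0.02 to 0.10 in FGO, -0.07 to 0.02 in MII, -0.80 to -0.47 at L1C, 2.1 to 2.28 at E2C and 1.16 to 1.50 at L2C.

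At L1C, AW822073 passed the limma threshold with -0.55 in the fit of all early libraries, and leaving out a library gave -0.73 to -0.45. The replicate block gave -0.62 for Duxf3 (limma adjusted p 0.0357) and -0.73 for AW822073 (limma adjusted p 0.0165); it uses only replicates 1 and 2 for the difference, since L1C knockout replicate 3 has no control of its number. Same-numbered libraries share only a number: their deviations correlated at -0.09 to 0.17. The block left the E2C counts at 8 and 3 lower and gave 25 higher and 4 lower DUX-induced genes at L2C.

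The number of DUX-induced genes lower at E2C was 3 with a pseudocount of 0.1, 5 with TPM scaling, 1 without a filter, 4 among genes averaging 5 FPKM or more, 4 without trend, 23 in the fit of all early libraries and 1 to 8 with a library left out. Activators higher at E2C numbered 1 in the fit of all early libraries and 0 to 1 with a library left out, and 1 was lower without a filter. Repressors higher at E2C numbered 1 with median centring, 1 among genes averaging 5 FPKM or more, 2 in the fit of all early libraries and 0 to 1 with a library left out. At L2C, without a filter, 2 DUX-induced genes, 1 activator and 3 repressors were lower; with a library left out, 2 to 6 DUX-induced genes and 3 to 5 repressors were. Repressors higher at L2C numbered 2 with TPM scaling, 1 with median centring, 1 among genes averaging 5 FPKM or more and 2 in the fit of all early libraries. The causes were not tested. Read depth is not known from FPKM, so the error of values near 0 in oocytes, eggs and E6.5 tissue cannot be given.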
